A study of Homo sapiens with 4 samples.

Results

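The alpha and beta tubulin genes expressed in 2 human bladder cancer cell lines were examined in RNA-seq libraries made with and without protodioscin, a steroidal saponin of plants. The 10 genes were chosen by name, 4 alpha tubulin genes (TUBA1A, TUBA1B, TUBA1C and TUBA4A) and 6 beta tubulin genes (TUBB, TUBB2A, TUBB2B, TUBB3, TUBB4B and TUBB6), and were found by Ensembl identifier among the 60617 genes of the expression table. All 10 were present. T24 and 5637 are established lines grown from human bladder carcinomas, and both were kept in the same serum-supplemented medium. There were 4 libraries, 1 per group: T24 untreated, T24 exposed to protodioscin at 60 µM, 5637 untreated, and 5637 exposed at 70 µM, each exposure lasting 6 h. The doses are those of the sample titles; the treatment protocol gives the same figures in mM, and no vehicle is named for the untreated cultures. With 1 library per group there were no replicates within a group, and whether the 4 cultures were independent is not stated.

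Microtubules are hollow polymers of alpha and beta tubulin heterodimers, and each partner is encoded by several genes whose products are called isotypes. The isotypes are nearly alike in the globular body of the protein and differ mostly in a short, acidic tail at the carboxyl terminus that projects from the microtubule surface and is modified by glutamylation and detyrosination. Beta tubulin is the target of the taxanes and vinca alkaloids. Cells also adjust tubulin mRNA to the pool of free heterodimer: TTC5 binds the first residues of nascent tubulin on the ribosome and recruits SCAPER and the CCR4-NOT deadenylase, which leads to decay of that mRNA.

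The 2 ends of the coding sequence are shown because they encode the acidic tail and the residues read in autoregulation. The last 60 coding bases, stop codon included, encode the tail, and are given for TUBA4A and the 6 beta genes. They are taken from GENCODE 29 transcripts on GRCh38 and written 5′ to 3′ on the coding strand, with the in-frame glutamate codons GAA and GAG in capitals.
TUBA4A, chr2:219250352-219250411, minus strand: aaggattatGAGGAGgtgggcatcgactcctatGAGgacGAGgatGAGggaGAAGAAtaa
TUBB, chr6:30724338-30724397, plus strand: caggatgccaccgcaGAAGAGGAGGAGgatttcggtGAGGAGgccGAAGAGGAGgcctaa
TUBB2A, chr6:3153863-3153922, minus strand: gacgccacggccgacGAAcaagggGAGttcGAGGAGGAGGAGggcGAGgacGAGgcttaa
TUBB2B, chr6:3224751-3224810, minus strand: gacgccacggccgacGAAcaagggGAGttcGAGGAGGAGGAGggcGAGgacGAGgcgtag
TUBB3, chr16:89935745-89935804, plus strand: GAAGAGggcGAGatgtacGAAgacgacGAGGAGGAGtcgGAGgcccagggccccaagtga
TUBB4B, chr9:137243497-137243556, plus strand: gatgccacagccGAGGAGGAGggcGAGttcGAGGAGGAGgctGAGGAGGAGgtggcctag
TUBB6, chr18:12326071-12326130, plus strand: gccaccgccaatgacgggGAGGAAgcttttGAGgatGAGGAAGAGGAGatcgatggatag
TUBB2A and TUBB2B matched at 96.7% of these bases, whereas TUBB4B and TUBB6 matched at 58.3%. TUBB4B held 10 glutamate codons, the highest number among the 7 members shown, and TUBA4A and TUBB6 held 7, the lowest.

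The first 12 coding bases, which encode the residues read by TTC5, are shown for each distinct version found among the members.
TUBA1A, TUBA1B and TUBA1C: atgcgtgagtgc
TUBA4A: atgcgtgaatgc
TUBB and TUBB4B: atgagggaaatc
TUBB3 and TUBB6: atgagggagatc
TUBB2A: atgcgcgagatc
TUBB2B: atgcgtgagatc
TUBB and TUBB4B, the leading beta isotypes, carried the same 12 bases as each other, and the 3 alpha genes of the chromosome 12 cluster shared another version.

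Sequence likeness limits how far short reads can assign expression to 1 isotype. TUBA1A and TUBA1B were 97.2% identical over the coding sequence, TUBA1B and TUBA1C 96.8%, and TUBB2A and TUBB2B 98.1%. TUBA4A was 84.4% to 85.7% identical to the other alpha genes, the remaining pairs of beta genes 80.9% to 87.7%, and alpha and beta genes 53.0% to 55.0%. In every stretch of 150 bases, the read length, of a representative transcript, the share also found exactly in another gene was 49.4% for TUBB2A and 39.4% for TUBB2B, mostly in each other. It was 19.1% for TUBA1B, 6.91% for TUBA1A, 6.77% for TUBA1C and 2.50% for TUBB. For TUBA4A, TUBB4B and TUBB6 no such stretch was found. Only the direction of the transcript was searched, so overlaps with genes on the opposite strand, which these 3 have, are not covered. For TUBB3 the share was 88.7%, nearly all of it in a read-through transcript, ENSG00000198211, that contains the TUBB3 exons. That transcript was listed at 0 FPKM in 3 libraries and at 0.236 FPKM in treated 5637. How the authors' quantification divided such reads is not given in the sources used here, and the split between TUBB2A and TUBB2B in particular is uncertain.

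**Figure D1:**
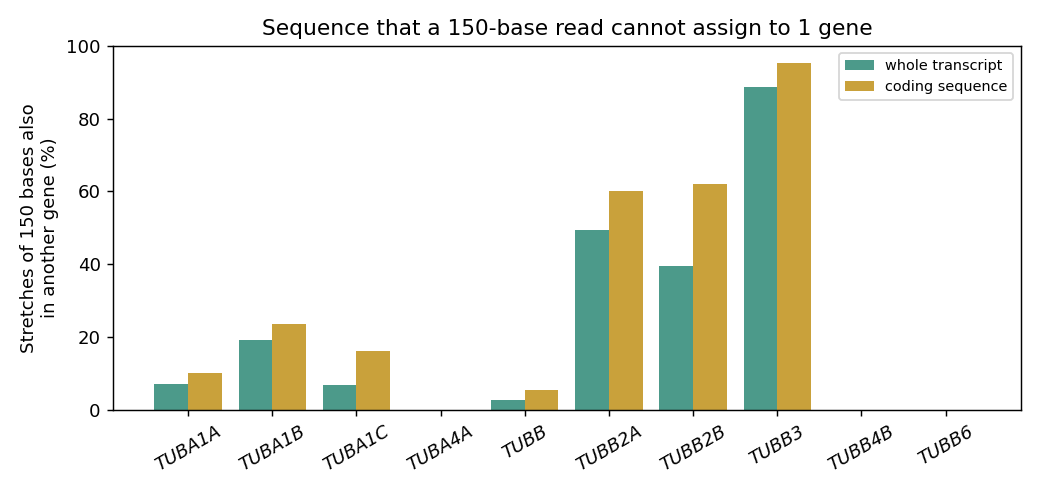
Share of 150-base stretches of each member's representative transcript that also occur in another gene (vertical axis, percent), for the whole transcript and for its coding part. TUBB3, TUBB2A and TUBB2B stand highest, and TUBA4A, TUBB4B and TUBB6 are at 0.

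Expression was given as FPKM (fragments counted per kilobase of transcript and relative to the fragment total of the library), which is per length and so allows levels of different genes to be compared. The FPKM of a library summed to between 322821 and 348577, and 11941 to 12405 genes reached 1 FPKM. A read on 1 kb of transcript was worth about 0.0171 to 0.0246 FPKM, as read from the spacing of the lowest values, which put the least expressed member, TUBB2B, at about 622 to 1281 reads per library. Urothelial keratins KRT7, KRT8, KRT18 and KRT19 were present in both lines. KRT5, a basal keratin, measured 331 and 283 FPKM in 5637 and was listed at 0 in T24. Of the uroplakins, which mark differentiated urothelium, UPK1B and UPK3B reached 3.23 to 5.60 FPKM in 5637 and at most 0.148 FPKM in T24, and UPK3A was listed at 0 in all 4 libraries. CDH1, the epithelial cadherin, reached 69.6 and 72.3 FPKM in 5637 but no more than 0.016 FPKM in T24. Other markers did not all follow this division. FOXA1, a urothelial marker, measured 19.9 and 19.4 FPKM in T24 and 4.84 and 4.78 FPKM in 5637. The mesenchymal markers CDH2 and ZEB1 were higher in T24, but VIM was higher in 5637, at 304 and 267 FPKM against 68.0 and 61.4 FPKM in T24. In bulk RNA, fewer cells of a type and less RNA per cell cannot be told apart, and this holds for every level below.

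Among the alpha genes, TUBA1B, the main alpha isotype of dividing cells, was the most abundant in every library. TUBA1B (ENSG00000123416, chr12:49127782-49131397, minus strand) stood at 1734 FPKM without and 1752 with protodioscin in T24, and at 1366 without and 1399 with it in 5637. By level it ranked 6th and 7th of all genes in the T24 libraries and 17th and 19th in those of 5637. Both T24 libraries exceeded both 5637 libraries, and the treated and untreated library of a line lay close together. TUBA1C (ENSG00000167553, chr12:49188736-49274603, plus strand), another ubiquitous isotype of the same gene cluster, measured 375, 381, 289 and 308 FPKM in that order of libraries, which is kept below, again without overlap between the lines. TUBA1A (ENSG00000167552, chr12:49184796-49189324, minus strand), best known as the isotype of developing neurons, measured 132, 136, 114 and 126 FPKM. TUBA4A (ENSG00000127824, chr2:219249711-219278170, minus strand) measured 79.1, 79.98, 98.6 and 100.1 FPKM and was the only member higher in both 5637 libraries than in both T24 libraries. The order TUBA1B, TUBA1C, TUBA1A, TUBA4A was the same in all 4 libraries, and no 2 neighbours in it overlapped within a line.

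Among the beta genes, TUBB, the major beta isotype of most tissues, and TUBB4B, a ubiquitous isotype also used in cilia, led in every library. TUBB (ENSG00000196230, chr6:30720201-30725426, plus strand) stood at 1058 and 1021 FPKM in T24, without and with protodioscin, and at 575 and 573 in 5637. TUBB4B (ENSG00000188229, chr9:137241213-137243707, plus strand) stood at 691, 787, 575 and 631 FPKM. TUBB thus exceeded TUBB4B in both T24 libraries, the untreated 5637 library held both at 575 FPKM, and TUBB4B exceeded TUBB in treated 5637, so that in 5637 the order of these neighbours did not hold beyond the spread of the 2 libraries. TUBB6 (ENSG00000176014, chr18:12307669-12344320, plus strand), a divergent class of beta tubulin that is widely expressed at lower level, measured 368 and 340 FPKM in T24 against 85.3 and 74.8 in 5637. Its T24 level was 4.32 times that of 5637 without treatment and 4.55 times with it, and the lines were far apart. TUBB3 (ENSG00000258947, chr16:89921392-89938761, plus strand), the neuronal isotype that is also expressed in many carcinomas, measured 63.1, 64.2, 55.2 and 53.6 FPKM. TUBB2A (ENSG00000137267, chr6:3153669-3157526, minus strand) measured 42.1, 47.5, 20.5 and 23.5 FPKM. TUBB2B (ENSG00000137285, chr6:3224261-3231730, minus strand), its neighbour on chromosome 6 and another isotype of developing brain, measured 11.3, 12.2, 5.66 and 6.36 FPKM and was the lowest member in every library. TUBB6 exceeded TUBB3 in all 4 libraries, by a much smaller margin in 5637.

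**Figure D2:**
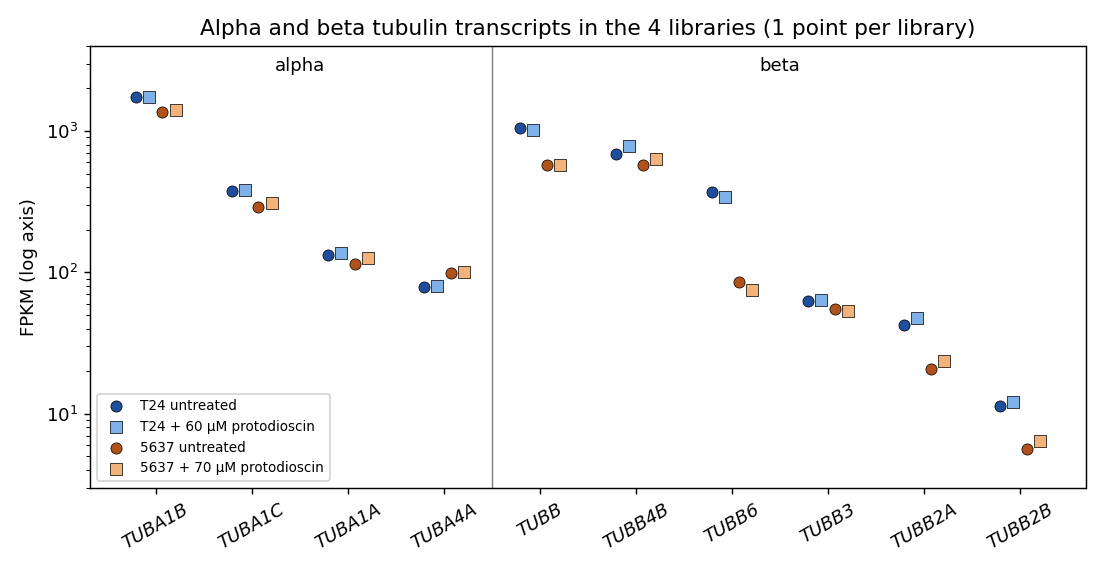
FPKM of the 10 members (vertical log axis), 1 point per library, alpha genes on the left and beta genes on the right. TUBA1B is highest in each library, and TUBB6 shows the widest gap between T24 and 5637.

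Few neuronal markers were detected beside TUBB3. Of 9 neuronal markers, 2 reached 1 FPKM in any library: NEFL at 15.8 and 12.2 FPKM and NEFM at 8.51 and 7.09 FPKM in untreated and treated 5637, both listed at 0 in T24. RBFOX3, ELAVL3 and STMN2 were listed at 0 in all 4 libraries. The 9 markers summed to 0.893 and 0.955 FPKM in T24 and to 25.1 and 20.5 FPKM in 5637, the line with the lower TUBB3. A further 8 alpha and beta genes (TUBA3C, TUBA3D, TUBA3E, TUBA8, TUBAL3, TUBB1, TUBB4A and TUBB8) were also looked up, and none reached 1 FPKM; the highest value was 0.560 FPKM for TUBA8.

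Isotype composition was expressed as each gene's percentage of the summed FPKM of its family, which does not change when a library is multiplied by 1 factor; shares were not computed under quantile scaling. The alpha pool was much the same in all libraries. TUBA1B made up 74.7% and 74.6% of alpha tubulin FPKM in the T24 libraries and 73.1% and 72.4% in those of 5637. TUBA1C held 15.5% to 16.2%, TUBA1A 5.69% to 6.54% and TUBA4A 3.40% to 5.28%, the last being higher in both 5637 libraries. The beta pool differed between the lines. TUBB made up 47.4% and 44.9% in T24 and 43.7% and 42.1% in 5637. TUBB4B made up 30.9% and 34.7% in T24 and 43.7% and 46.3% in 5637, which is 12.7 percentage points more in 5637 without treatment and 11.7 with it. TUBB6 made up 16.5% and 15.0% in T24 and 6.48% and 5.49% in 5637. Together, these values describe a beta pool in 5637 that held a larger share of TUBB4B and a smaller share of TUBB6 than in T24. TUBB3 held 2.82% in both T24 libraries and 4.19% and 3.94% in 5637, so that its share was larger in 5637 although its level was lower. TUBB2A held 1.56% to 2.09% and TUBB2B 0.430% to 0.535%.

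**Figure D3:**
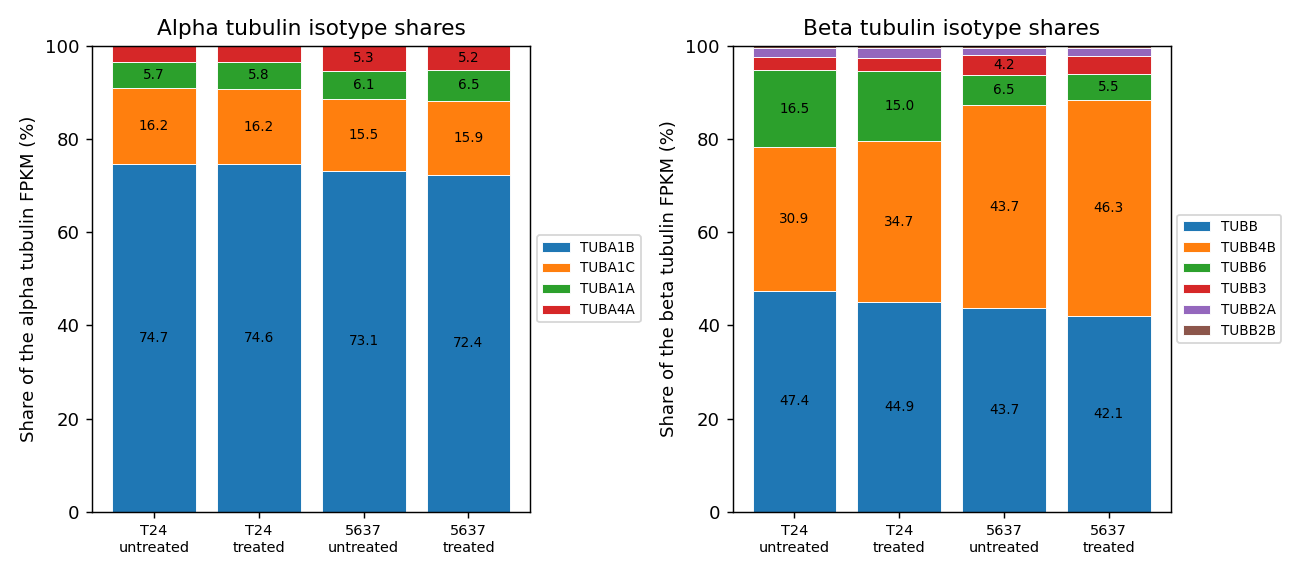
Stacked shares of each isotype in the alpha (left) and beta (right) tubulin FPKM of the 4 libraries (vertical axis, percent). The alpha stacks are nearly alike, whereas TUBB4B takes 43.7% or more of the beta stack in 5637 and 34.7% or less in T24.

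The 2 families differed unequally between the lines. The alpha genes summed to 2320, 2349, 1867 and 1933 FPKM, and the beta genes to 2234, 2272, 1316 and 1363. The ratio of alpha to beta FPKM was 1.04 and 1.03 in T24 and 1.42 in both 5637 libraries, since the beta sum was 1.70 and 1.67 times higher in T24 and the alpha sum 1.24 and 1.22 times. All 10 genes made up 1.40% and 1.43% of the FPKM of the T24 libraries and 0.941% and 0.946% of those of 5637. The treated sum of all 10 differed from the untreated sum by 1.49% in T24 and by 3.54% in 5637, both higher in the treated library, far less than the lines differed.

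The difference between the lines was tested with limma on log2(FPKM + 1) over the 4 libraries, with treatment as a term, 2 libraries per line and Benjamini-Hochberg adjustment over 12893 genes. The 2 libraries of a line were 1 untreated and 1 treated, not replicates. The fit left 1 residual degree of freedom, against 4.99 for the prior variance, which is drawn from all genes tested. The p-values thus rest mostly on the spread of other genes. They cover these 4 libraries only, and that spread may be technical. Of the 10 members, 8 were lower in 5637 and 1 was higher at an adjusted p below 0.05, where 35.1% of all genes tested were lower and 33.9% higher (68.9% in either direction). All 6 beta genes were among the 8. The lines thus differed in most genes measured, and the members' count is to be read against that share. The median coefficient was -0.34 over the members and -0.014 over all genes tested.

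TUBB6 had the largest coefficient of the members, -2.13 (SE 0.060, limma adjusted p = 2.62e-06), and 1.87% of all genes were called lower by 2 or more. TUBB2A followed at -0.99 (SE 0.063, limma adjusted p = 4.71e-05), then TUBB at -0.86 (SE 0.066, limma adjusted p = 9.94e-05) and TUBB2B at -0.86 (SE 0.084, limma adjusted p = 0.000257). These 4 are all beta genes, and each was lower in 2 of 2 libraries of 5637. TUBA1C, TUBA1B, TUBB4B and TUBB3 had smaller coefficients of -0.34, -0.33, -0.29 and -0.22, with limma adjusted p of 0.00336, 0.00719, 0.00836 and 0.018. Quantile scaling of the libraries enlarged that of TUBA1B to -0.96 and that of TUBB4B to -0.46, and without the filter on low genes TUBA1B, TUBB4B and TUBB3 lost their calls (limma adjusted p = 0.142, 0.0941 and 0.0554). TUBA4A was higher in 5637 by 0.32 (SE 0.058, limma adjusted p = 0.00355). TUBA1A, at -0.16 (SE 0.061), did not pass the threshold (limma adjusted p = 0.0621), but did after TPM scaling, at -0.24 (limma adjusted p = 0.0136), and over genes that share no exon on their strand (limma adjusted p = 0.04995).

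**Figure D4:**
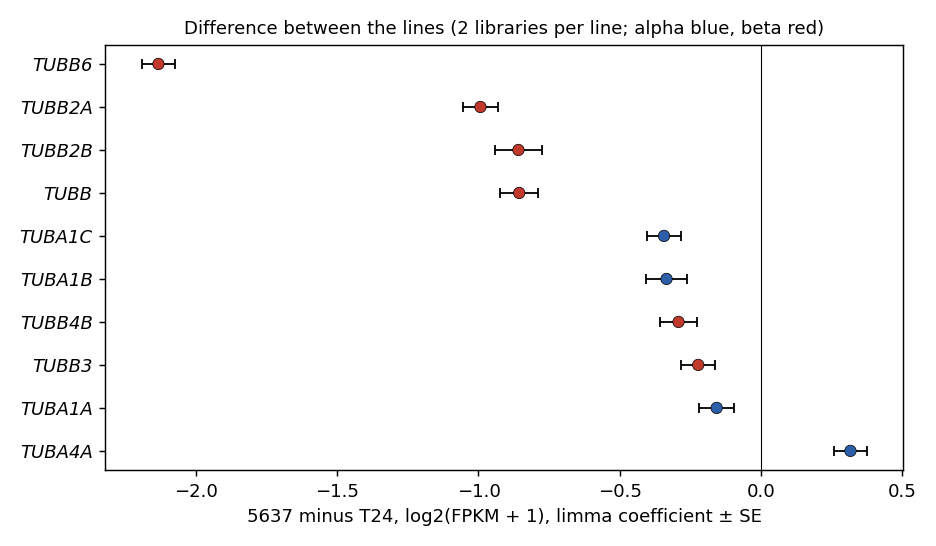
Difference between the lines for each member (horizontal axis, limma coefficient of 5637 minus T24 in log2(FPKM + 1), bars ± SE, 2 libraries per line). TUBB6 lies farthest to the left at -2.13, and TUBA4A is the only member to the right of 0.

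Among the members, TUBB6 also varied most over the 4 libraries, with a standard deviation of 1.24 in log2(FPKM + 1). The 3 protein-coding genes of 11698 whose centred values lay closest to it were ZEB2 (distance 0.029), PCDH7 (0.065) and SPARC (0.070), a likeness over only 4 libraries that mostly reflects the gap between the lines. ZEB2, a repressor of epithelial genes, measured 5.07, 4.59, 0.408 and 0.215 FPKM. Its 5637 values lay below 1 FPKM, where the 1 added before taking log2 narrows differences. PCDH7, a protocadherin, measured 10.7, 10.04, 1.91 and 1.46 FPKM. SPARC, a matricellular protein, measured 66.7, 62.4, 14.3 and 13.3 FPKM. In each, both T24 libraries were high and both 5637 libraries low, which follows from their choice by likeness to TUBB6. The closest pair within the family was TUBA1B and TUBA1C, at a distance of 0.042.

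Exposure to protodioscin was compared with no exposure within each line, without a test, and over both lines with limma. No member passed the adjusted threshold, and neither did any other gene (0.0% of 12893), while 3 of the 10 members and 9.52% of all genes had an unadjusted p below 0.05. No member differed by 0.5 or more in either line, a size reached by 3.26% of 12193 genes in T24 and 2.12% of 12635 in 5637, and thus none by 1 or more, which 0.484% and 0.388% reached. The median absolute difference of the members was 0.047 in T24, below the 0.11 over all genes. In 5637 it was 0.11, about the same as the 0.11 over all genes. The genes compared reach down to 1 FPKM, and most members stood far above that level. Above 0 were 8 members in T24 (56.0% of all genes) and 7 in 5637 (61.5%). In 5637, 5 members were above 0 under median-ratio scaling (46.3% of all genes) and 5 under TPM scaling (51.2%).

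Differences of at least 0.1 with the same sign in both lines were found for 4 beta genes and no alpha gene. TUBB2A, TUBB2B and TUBB4B were higher in both treated libraries, as were 13.8% of 11417 genes, and TUBB6 was lower in both, as were 6.44%. TUBB4B, whose levels were 691 and 787 FPKM in T24 and 575 and 631 FPKM in 5637, differed by 0.19 and 0.14. Its limma coefficient was 0.16 (SE 0.065), with an unadjusted p of 0.0482 and an adjusted p of 0.523. TUBB2A differed by 0.17 and 0.18, with a limma coefficient of 0.18 (SE 0.063, unadjusted p = 0.0307, adjusted p = 0.505). TUBB2B differed by 0.10 and 0.14, with a limma coefficient of 0.12 (SE 0.084, unadjusted p = 0.195). Since most exact 150-base stretches shared by TUBB2A and TUBB2B lie in each other, their like differences do not count as separate observations. TUBB6 was lower by 0.12 in T24 and by 0.19 in 5637, with a limma coefficient of -0.15 (SE 0.060, unadjusted p = 0.0449, adjusted p = 0.521). Of the 8 other settings tried, only the scalings could have changed a sign, since pseudocounts and gene filters cannot. Under the scalings each of these 4 kept its sign in both lines. Only TUBB2A also kept a size of 0.1 under all 8. TUBB4B came to 0.07 in 5637 under median-ratio scaling, TUBB2B to as little as 0.08 in T24 and 0.09 in 5637, and TUBB6 to -0.08 in T24 under quantile scaling.

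Counting error alone was smaller than these differences for TUBB4B, at about 0.012 in T24 and 0.013 in 5637 on the log2 scale, for TUBB6, at 0.016 and 0.031, and for TUBB2A, at 0.051 and 0.067. For TUBB2B it was 0.088 and 0.11, close to the differences themselves. It covers neither library preparation nor culture. Same-signed differences in both lines, counted in either direction, were at least as large as the smaller one of TUBB2A in 7.80% of genes. For TUBB4B this share was 12.9%. For TUBB6 the corresponding share was 16.9%, and for TUBB2B 19.7%.

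The shares moved little as well. With protodioscin the TUBB4B share of beta tubulin FPKM was 3.73 points higher in T24 and 2.67 points higher in 5637. That of TUBB differed by -2.44 and -1.61 points, and that of TUBB6 by -1.52 and -0.994 points. The ratio of TUBB4B to TUBB6, likewise unchanged by 1 factor per library, was 1.88 without and 2.32 with protodioscin in T24, and 6.74 without and 8.45 with it in 5637, higher in the treated library of both lines.

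The remaining members differed by less than 0.1 in at least 1 line. TUBA1A differed by 0.04 in T24 and 0.15 in 5637, TUBA1C by 0.02 and 0.09, TUBA1B by 0.02 and 0.03, and TUBA4A by 0.02 in each line. The direction for TUBA1B was not stable, since its limma coefficient of 0.02 became -0.02 under median-ratio scaling and -0.13 under quantile scaling, and that of TUBA4A became -0.02 under median-ratio scaling. TUBB differed by -0.05 and -0.0041, and its coefficient turned to 0.05 under quantile scaling. TUBB3 was the member with opposite signs, at 0.02 in T24 and -0.04 in 5637. In all, 7 members were above 0 and 2 below it in both lines, against 39.2% and 19.8% of genes. Under median-ratio scaling 5 members were above 0 and 4 below it in both lines, against 27.9% and 29.1% of genes.

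**Figure D5:**
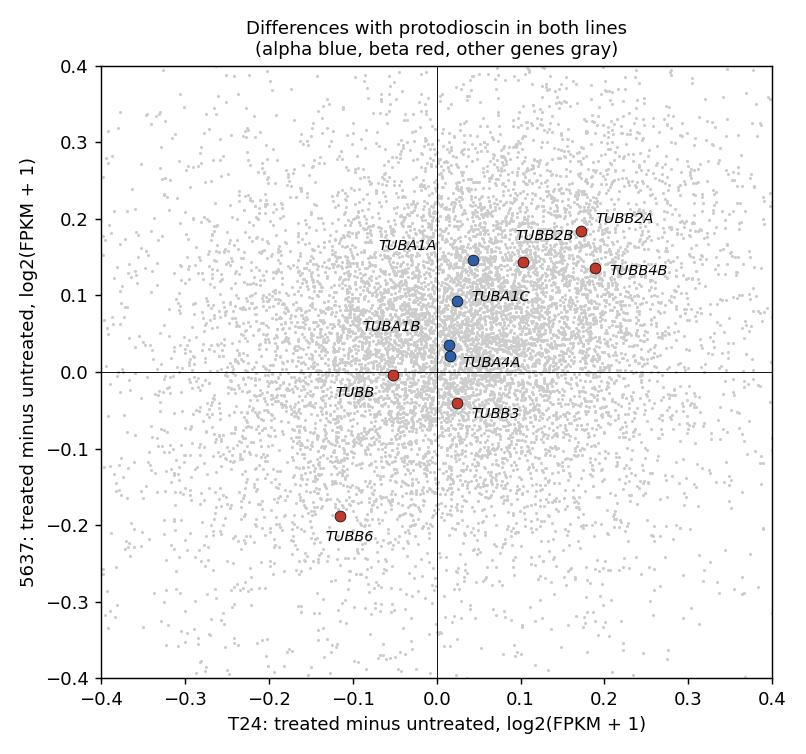
Treated minus untreated log2(FPKM + 1) in T24 (horizontal axis) and in 5637 (vertical axis) for the 10 members (alpha blue, beta red) and the other genes that lie within the plotted window of ± 0.4 (gray). TUBB4B, TUBB2A and TUBB2B lie at or above 0.10 on both axes and TUBB6 at -0.12 and -0.19, all inside the cloud of other genes.

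Several members overlap other genes on the opposite strand, and the labels do not say that strand was used in the counting, so reads from the overlaps cannot be told apart. TUBA1A and TUBA1C, at 132 and 375 FPKM in untreated T24 and 114 and 289 FPKM in untreated 5637, overlap each other in this way. TUBA1B-AS1, the antisense neighbour of TUBA1B, measured 5.31, 1.998, 3.01 and 0.490 FPKM, lower in both treated libraries. This is under 1% of the level of TUBA1B in every library. STK16 beside TUBA4A measured 3.39 to 5.67 FPKM, PSMG4 beside TUBB2B 1.39 to 3.22 FPKM, and AFG3L2 beside TUBB6 23.0 to 27.8 FPKM. AFG3L2 lay at 23.0 and 23.9 FPKM in T24, where TUBB6 lay at 368 and 340. In 5637 AFG3L2 lay at 24.2 and 27.8 FPKM, where TUBB6 lay at 85.3 and 74.8. PSMG4 lay at 2.43 and 3.22 FPKM in T24 and 1.45 and 1.39 in 5637. TUBB2B lay at 11.3 and 12.2 FPKM in T24 and 5.66 and 6.36 in 5637. How far reads from the overlaps entered the levels of the members was not tested.

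Of the other tubulins, gamma tubulin nucleates microtubules at the centrosome, and delta and epsilon tubulin belong to the centriole. TUBG1, the main gamma gene, measured 105.9, 115.9, 93.3 and 103.3 FPKM and was lower in 5637 by 0.17 (limma adjusted p = 0.0374). TUBG2 measured 15.9, 16.4, 12.1 and 15.1 FPKM. TUBE1 measured 3.94, 4.82, 8.68 and 10.02 FPKM and was higher in 5637 by 0.95 (SE 0.090, limma adjusted p = 0.000225), and TUBD1, at 4.51, 3.27, 6.46 and 6.07 FPKM, was higher by 0.58 (limma adjusted p = 0.00436). These 2 centriolar tubulin genes, at no more than 10.02 FPKM, were thus higher in 5637, as were 33.9% of all genes tested. Of 9 components of the gamma tubulin ring complex, 2 were lower and 2 higher in 5637, against 35.1% and 33.9% of all genes. MZT2A, a small subunit, measured 13.7, 15.8, 43.3 and 39.2 FPKM, and TUBGCP4 measured 5.02, 5.05, 9.60 and 9.38 FPKM; these were the 2 that were higher.

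New tubulin is folded by the chaperonin CCT, to which prefoldin delivers it, and is then assembled into heterodimers by the cofactors TBCA to TBCE. Of the 14 chaperonin and prefoldin genes, 8 were higher and 1 lower in 5637, where 33.9% of all genes were higher and 35.1% lower, with a median coefficient of 0.24, against -0.014 over all genes tested. CCT8, a chaperonin subunit, measured 117.0, 105.9, 179.8 and 184.5 FPKM (limma coefficient 0.71, adjusted p = 0.000243), and PFDN2, a prefoldin subunit, 45.0, 41.04, 71.0 and 65.6 FPKM (0.66, adjusted p = 0.000188). Of these 9 called genes, PFDN6 was the one lower in 5637. Of the 7 cofactor genes, 4 were lower and 1 higher in 5637. TBCEL, a TBCE-like protein that destabilizes tubulin, was lower by 0.85 (limma adjusted p = 0.000494), at 6.02, 6.77, 3.02 and 3.17 FPKM. TBCE was listed at 2.66 and 7.10 FPKM in untreated and treated T24, the only gene of these lists to differ by 0.5 or more in either line. A second identifier of TBCE, ENSG00000285053, was listed at 6.89 and 2.57 FPKM there, and the sum of both was 9.55 and 9.66 FPKM.

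The 3 autoregulation genes showed no called difference with protodioscin, and neither did any other of the 12893 genes tested. TTC5, the sensor of nascent tubulin, measured 4.39, 4.204, 4.15 and 4.29 FPKM, with a line coefficient of -0.02 (limma adjusted p = 0.861). SCAPER, its adaptor, measured 2.85, 3.64, 2.26 and 2.56 FPKM and was lower in 5637 by 0.31 (limma adjusted p = 0.040). CNOT11, the CCR4-NOT subunit that SCAPER contacts, measured 16.6, 17.4, 22.0 and 23.8 FPKM and was higher in 5637 by 0.41 (limma adjusted p = 0.00252). The sensor itself was at a like level in all 4 libraries, and its 2 partners differed between the lines in opposite directions. This is to be read against the 68.9% of all genes called between the lines in either direction.

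Enzymes that modify tubulin, at the tail or by acetylation, were mixed. Of 16, 3 were lower and 7 higher in 5637, against 35.1% and 33.9% of all genes. VASH2, a vasohibin that removes the terminal tyrosine of alpha tubulin, measured 0.535, 0.989, 5.71 and 6.60 FPKM (limma coefficient 2.03, adjusted p = 2.55e-05), whereas VASH1, the other vasohibin, measured 1.47, 2.10, 0.748 and 1.12 FPKM (-0.52, adjusted p = 0.00562). The 2 vasohibins thus differed between the lines in opposite directions. ATAT1, the acetyltransferase of alpha tubulin, measured 1.45, 1.17, 3.94 and 5.38 FPKM (1.29, adjusted p = 0.000537). VASH1 was higher in both treated libraries, by 0.32 and 0.28 (unadjusted p = 0.0312, limma adjusted p = 0.505).

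Proteins that bind along or at the end of microtubules included MAP7 and MAP1B, which each differed more between the lines than any member. Of 14 stabilizing proteins tested, 6 were lower and 3 higher in 5637, against 35.1% and 33.9% of all genes. MAP7, a cofactor of kinesin-1, measured 0.595, 0.649, 12.6 and 14.4 FPKM (limma coefficient 3.16, adjusted p = 4.05e-06). MAP1B, a microtubule-associated protein best known in neurons, measured 25.2, 22.8, 4.202 and 4.08 FPKM (-2.28, adjusted p = 5.69e-06), and MAPRE2, an end-binding protein, 14.4, 15.7, 2.24 and 3.13 FPKM (-2.13, adjusted p = 1.53e-05). MAP1B and MAPRE2 were thus low in 5637 as TUBB6 was, and MAP7 high, which follows from their choice by the line coefficient. Of the 9 destabilizing or severing proteins, 4 were lower and 3 higher in 5637, to be read against the same shares of all genes. KIF18A, a mitotic kinesin, measured 25.4, 25.9, 10.7 and 13.03 FPKM (-1.06, adjusted p = 0.000112), and STMN3, a stathmin that sequesters heterodimers, 55.6, 54.4, 105.9 and 91.95 FPKM (0.83, adjusted p = 0.000121). With protodioscin, no gene of any of these lists passed the adjusted threshold of limma. Among the stabilizing proteins 8 of 13 compared were above 0 in T24 and 11 of 14 in 5637, and among the destabilizing or severing ones 7 of 9 in each line, against 56.0% of all genes in T24 and 61.5% in 5637.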

How the data were processed

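RNA-seq libraries of T24 and 5637 cells (150-base paired reads) were used as the authors' deposited table of FPKM per gene. Per the submitters' processing notes, Trimmomatic, HISAT2 and StringTie were used with GRCh38; no versions are given. Read counts could not be recovered. From the deposited FPKM, log2(FPKM + 1) was computed. limma 3.58.1 (R 4.3.3) was fitted with line and treatment terms and a trended prior variance over the 4 libraries (1 residual degree of freedom) for 12893 genes with at least 1 FPKM in at least 2 libraries, with Benjamini-Hochberg adjustment and a threshold of 0.05. The code was tested on simulated data. Differences within a line, over genes with at least 1 FPKM in either library, have no test. Isotype shares are percentages of the alpha or beta FPKM sum. Annotation, coding sequences and overlaps came from GENCODE 29 (Biopython 1.88, bedtools 2.31.1). Groups were taken from the labels of line and treatment.

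The members and gene lists were chosen with earlier results of these data known. Named were all members, other tubulins reaching 1 FPKM, and, of each list, up to 2 genes per direction by the smaller of the same-signed differences in both lines and by the line coefficient, the 3 genes nearest to the most variable member, and overlapping genes; the text gives a subset of these. Other pseudocounts, filters, scalings and denominators, and a restriction to genes without exon sharing, were tried. Counting errors were derived from an approximate depth, the spacing of the lowest values, and cover counting only. The coding ends of 3 alpha genes are not reported here.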

Additional observations from a re-analysis of the deposited data

Results flagged for a closer look

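Of the members and the genes named by rule, the following differed with protodioscin in opposite directions in the 2 lines. Other genes of the lists did so too, such as TUBGCP3 (-0.16 in T24 and 0.24 in 5637) and KIF2A (0.19 and -0.45). Over 11417 genes, 39.2% were above 0 and 19.8% below 0 in both lines, so opposite signs were common. The difference between the lines was not tested, since each group had 1 library. For TUBB3, the difference in 5637 minus that in T24 was -0.065 (0.02 in T24 and -0.04 in 5637). Among gamma tubulin ring components, it was -0.34 for MZT2A (0.20 and -0.14), -0.036 for TUBGCP4 (0.0049 and -0.03), 0.24 for TUBGCP5 (-0.03 and 0.22) and -0.17 for TUBGCP2 (0.085 and -0.09), and the median of the 9 genes differed by 0.082 (-0.03 and 0.06). Among chaperonin and prefoldin genes, it was 0.18 for CCT8 (-0.14 and 0.04) and 0.12 for VBP1 (-0.11 and 0.02), and the median of the 14 genes differed by 0.10 (-0.08 and 0.02). For 1 identifier of TBCE it was -1.25 (1.15 and -0.10), with exons shared between its 2 identifiers. The sum of both identifiers did not differ in opposite directions, at 9.55 and 9.66 FPKM in T24 and 11.0 and 12.1 FPKM in 5637. For TTC5 the difference in 5637 minus that in T24 was 0.089 (-0.05 and 0.04), for ATAT1 0.54 (-0.17 and 0.37) and for AGTPBP1 0.32 (-0.03 and 0.29).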

How the results depend on the processing

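No paired analysis was possible because the labels carry no replicate numbers, beyond the cell line term that the fit already holds; without that term limma called 0 genes for treatment (5 higher and 4 lower at an unadjusted p below 0.05). Leaving out a library leaves no residual degree of freedom. The count of genes called for treatment was 0 (1227 at an unadjusted p below 0.05) and became 2 with a pseudocount of 0.1, 2 with TPM scaling and 2 over genes that share no exon on their strand, none of them a member. Genes that differed by 1 or more numbered 59 in T24 and 49 in 5637; they numbered 156 and 121 with a pseudocount of 0.1, 17 and 10 with a pseudocount of 5, 34 and 17 with a filter at 5 FPKM, and 15 and 14 without exon-sharing genes. Treatment coefficients changed sign for TUBA1B (-0.017 with median-ratio and -0.13 with quantile scaling), TUBA4A (-0.023, median-ratio), TUBB (0.046, quantile) and TUBB3 (0.0012, quantile). The cause was not tested. Across the alternatives TUBB4B ranged from 0.17 to 0.23 in T24 and from 0.07 to 0.14 in 5637, TUBB6 from -0.14 to -0.08 and from -0.25 to -0.18, and the line coefficient of TUBB6 from -2.22 to -2.08. Without TUBB3 in the beta sum, the shares in untreated and treated 5637 were 45.6% and 43.8% for TUBB and 45.6% and 48.2% for TUBB4B. Median-ratio scaling turned the genes at an unadjusted p below 0.05 from 719 higher and 508 lower to 412 higher and 768 lower.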

Other observations

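Tubulin pseudogenes were looked up after the values of the members had been seen. Of 51 alpha and beta tubulin pseudogenes in the table, 39 were listed at 0 in all 4 libraries and 4 reached 1 FPKM in a library. TUBBP5 measured 0, 0.042, 2.28 and 2.57 FPKM, in the order used above, and TUBA5P at 0.980, 0.543, 2.95 and 3.29 FPKM. Both were higher in 5637, by 1.75 (limma adjusted p = 4.24e-05) and 1.24 (limma adjusted p = 0.000516). TUBBP1, which shares exact 150-base stretches with TUBB, measured 2.28, 2.12, 1.36 and 1.17 FPKM. TUBB2BP1, which shares such stretches with TUBB2A and TUBB2B, measured 2.03, 2.38, 1.12 and 1.27 FPKM. These 2 were lower in 5637, by coefficients of -0.50 (limma adjusted p = 0.00672) and -0.54 (limma adjusted p = 0.0048), as were TUBB and TUBB2B. Because of the shared stretches, this likeness does not count as a separate observation. Whether reads of the members entered the pseudogene levels was not tested. Over all genes tested, 68.9% were called between the lines in either direction.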
